A study of Mus musculus with 6 samples.

Results

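Skin from diabetic mice was examined at 5 places in the genome where a gene of the dermal matrix or its cells shares exon sequence with a gene on the other strand. The 10 genes, of 48377 gene symbols in the count table, form the pairs Gm9913 and Fbn1, C230034O21Rik and Fat4, Tmem198b and Mmp19, Med12l and Igsf10, and Gm16159 and Fgfr1. The first gene of each pair is called the opposite-strand gene and the second the matrix-locus gene. The pairs were chosen by name from earlier results of the same table. In those results the opposite-strand gene held more counts than its partner, and Tmem198b and Med12l lay among the genes with the smallest p between the groups. The division of counts within a pair and the differences between the groups are therefore given as descriptions, and the p-values printed with them support nothing further.

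The libraries were made from skin of Db/Db mice, which lack a working leptin receptor and become obese and diabetic. The study asked how topical BRAF inhibition acts on the healing skin. Vemurafenib (PLX4032, a BRAF kinase inhibitor, 1 uM) had been given for 16 days in 3 libraries, and the vehicle, named DMSO in the titles, for the same 16 days in 3 libraries. The labels give neither the age or sex of the mice nor the position of the sampled skin relative to a wound, and no label ties a library to an animal of its own. The p-values therefore reflect only how far these libraries vary, part of which may be technical. Poly(A) RNA was sequenced from one end in a protocol that keeps the strand of each transcript.

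The depth was low, with 14189 to 78434 counts per library. Levels are given as CPM, counts scaled to 1000000 per library after TMM adjustment. Taking 3 counts as the floor, a count of 0 allows a level of up to 38.9 to 210.0 CPM, depending on the library. Of the 10 genes, 5 were counted deeply enough to be tested. These were the 5 opposite-strand genes, and 0 matrix-locus genes passed the filter. The fibroblast marker list (8 of 8 genes counted) summed to 16693 to 34555 CPM with vemurafenib and 25576 to 56123 CPM with vehicle. Of its 7231 counts, Col1a1 held 2950, Col3a1 2790 and Col1a2 1457. This sum is therefore almost wholly collagen, and the same collagen genes recur in the dermal collagen list used further on. The keratinocyte list (7 of 7) summed to 2904 to 4959.8 CPM with vemurafenib and 1319.8 to 4059.9 CPM with vehicle, so markers of both skin layers were present. Vehicle 3 had the highest fibroblast sum and the lowest keratinocyte sum. Vemurafenib 3 had the lowest fibroblast sum and 7599.7 CPM of inner root sheath genes, which reached at most 490.0 CPM in any other library. Values without either library stand beside several of the results they move. Ranges from leaving out each library in turn are given at the end for the tested genes. In bulk skin, fewer cells of a type and less RNA per cell cannot be told apart.

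Genes on opposite strands of one stretch of DNA give transcripts whose sequences are complementary. A library that keeps strand can tell such transcripts apart, provided that the counting step is told which strand the reads come from. The strand setting of the counting is not given in the sources used here, so a count under either gene of a pair cannot be assigned to that gene's transcript with certainty. The matrix-locus genes have well known roles. Fbn1 encodes fibrillin-1, which forms the microfibrils that carry elastin and hold latent TGF-beta in the dermis. Fat4 encodes a giant cadherin that binds Dachsous proteins and sets planar cell polarity. Mmp19 encodes a secreted metalloproteinase, Igsf10 a large secreted protein of the immunoglobulin superfamily, and Fgfr1 a receptor tyrosine kinase for fibroblast growth factors.

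The sequence shared by each pair was found by comparing merged exons in GENCODE M21 on mm10. Gm16159 (chr8:25548661-25556083, minus strand, annotated as antisense) lies wholly inside Fgfr1 (chr8:25513654-25575718, plus strand). Their exons share 164 bp, all of them coding in Fgfr1, and the remaining 993 bp of Gm16159 exon lie opposite Fgfr1 introns. The whole shared stretch, chr8:25555469-25555632, is shown on both strands. Capitals mark the same 10 base pairs, at the start of the stretch on the Fgfr1 strand and at its end on the Gm16159 strand.
Fgfr1: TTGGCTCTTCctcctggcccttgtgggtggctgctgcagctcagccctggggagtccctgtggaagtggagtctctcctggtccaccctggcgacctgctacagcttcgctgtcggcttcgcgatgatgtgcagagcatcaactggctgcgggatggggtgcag
Gm16159: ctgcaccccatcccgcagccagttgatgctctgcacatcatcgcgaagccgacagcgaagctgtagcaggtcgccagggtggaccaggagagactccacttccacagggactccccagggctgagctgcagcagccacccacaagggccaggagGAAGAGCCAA
Every read from these 164 bp fits one of the genes on one strand and the other gene on the other strand. The stretch is present in full in the transcript Fgfr1-215, and 8 of the 19 annotated Fgfr1 transcripts share at least some of it.

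C230034O21Rik (chr3:38874570-38888259, minus strand, annotated as antisense) and Fat4 (chr3:38886940-39011985, plus strand) lie head to head. They share 1209 bp of exon in 2 segments, 674 and 535 bp long, both in the first merged exon of Fat4. Of these, 1189 bp are coding in Fat4. The first 150 coding bases of Fat4, chr3:38886960-38887109, are shown because the Fat4 start codon itself lies in an exon of C230034O21Rik. Capitals mark the start codon and its complement.
Fat4: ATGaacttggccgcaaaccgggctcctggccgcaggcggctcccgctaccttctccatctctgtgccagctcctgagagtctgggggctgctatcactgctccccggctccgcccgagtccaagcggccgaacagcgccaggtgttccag
C230034O21Rik: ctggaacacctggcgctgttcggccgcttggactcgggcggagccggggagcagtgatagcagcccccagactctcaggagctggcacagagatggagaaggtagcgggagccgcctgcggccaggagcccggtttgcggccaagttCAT
RefSeq places C230034O21Rik at chr3:38880583-38886961, so the extent of this overlap depends on the annotation.

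Gm9913 (chr2:125505089-125507881, plus strand) is a predicted coding gene with a single exon of 2793 bp, set at the 5′ end of Fbn1 (chr2:125300594-125507993, minus strand). It shares 2442 bp with Fbn1 exon, or 87.4% of its length. The overlap is 2442 bp with the long first exon of Fbn1-202 and 397 bp with exons of Fbn1-201. RefSeq extends Fbn1 only to chr2:125506485, and Gm9913 was not found in RefSeq, so this overlap depends on the annotation. The Fbn1 start codon lies within the GENCODE overlap (chr2:125505574-125505603, minus strand), and capitals mark that codon.
Fbn1: ATGcggcgaggagggctgctggaggtcgcg
Med12l (chr3:59005825-59318682, plus strand) encodes a subunit of the Mediator kinase module and meets Igsf10 (chr3:59316735-59344394, minus strand) tail to tail. They share 1948 bp, which is non-coding in Med12l and holds the last 214 coding bp of Igsf10. In GENCODE M21 the Igsf10 coding sequence ends inside the overlap (chr3:59318466-59318495, minus strand). RefSeq ends Med12l at chr3:59318446, so there the Igsf10 stop codon lies outside Med12l. Capitals mark the stop codon.
Igsf10: tatgcaacaacttacatccaggtcctcTGA
Tmem198b (chr10:128800036-128804370, minus strand), which encodes a predicted transmembrane protein, and Mmp19 (chr10:128790910-128800824, plus strand) also meet tail to tail. They share 789 bp that are coding in neither gene. This overlap too depends on the annotation, since the RefSeq gene extents of Tmem198b and Mmp19 overlap by 2739 bp.

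**Figure D1:**
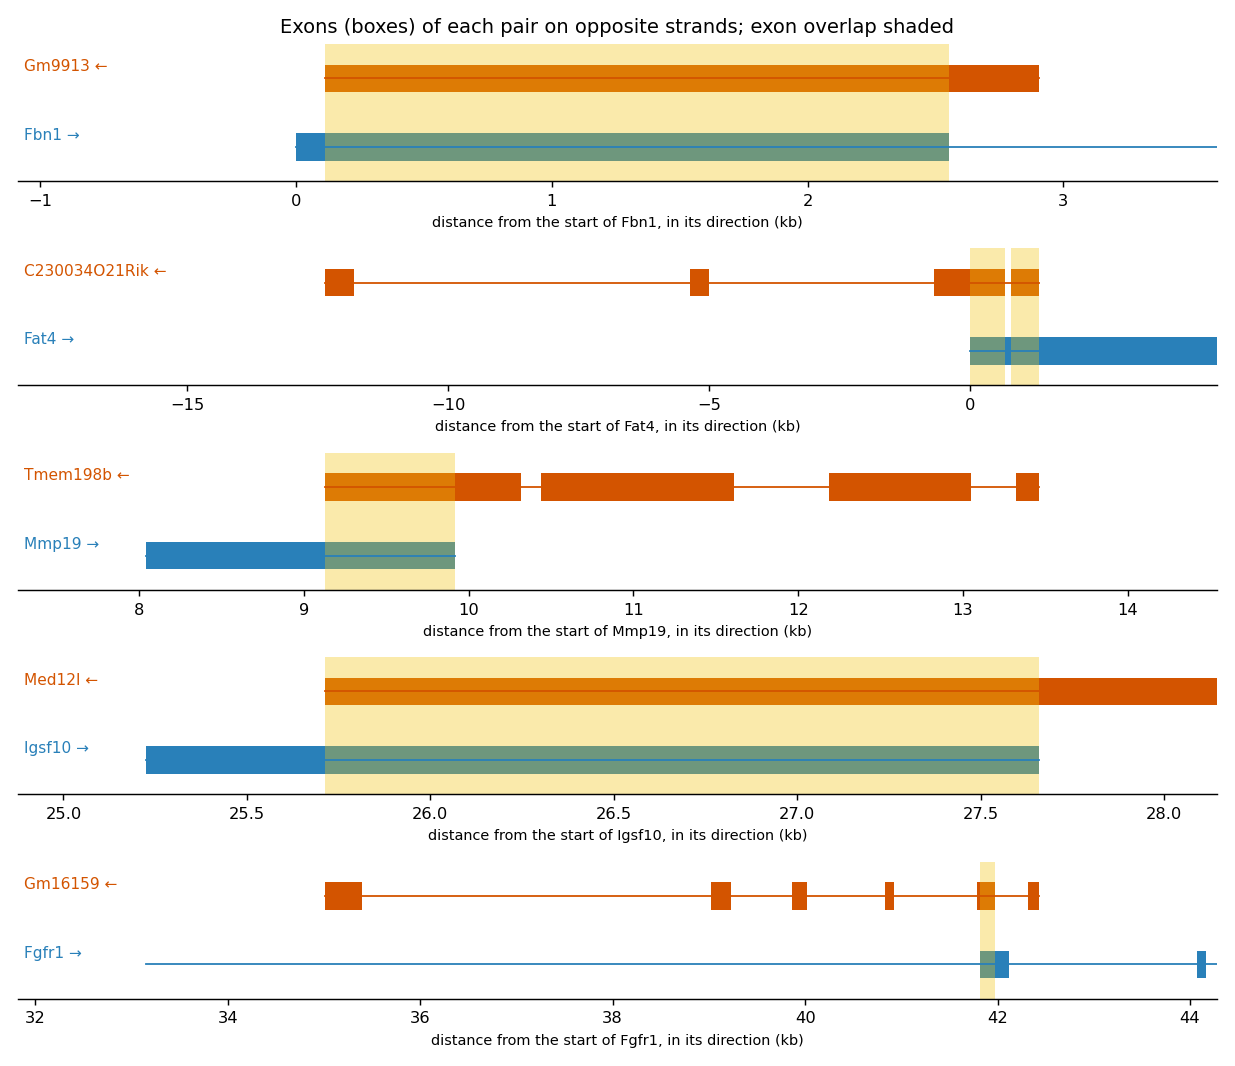
Exons of both genes of each pair (boxes) around the shared stretch, plotted as distance in kb from the start of the matrix-locus gene and in its direction; arrows give the direction of transcription and shading marks exon overlap. The shared stretch runs from 164 bp at Fgfr1 to 2442 bp at Fbn1.

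Most counts at each pair stood under the opposite-strand gene. C230034O21Rik had 391 counts over the 6 libraries and Fat4 had 20, so 95.1% of the pair's counts were under C230034O21Rik (exact binomial 95% interval 92.6 to 97.0). Med12l had 127 counts and Igsf10 had 30, a share of 80.9% (73.9 to 86.7). Gm9913 had 177 and Fbn1 had 61, a share of 74.4% (68.3 to 79.8). Gm16159 had 100 and Fgfr1 had 39, a share of 71.9% (63.7 to 79.2). Tmem198b had 119 and Mmp19 had 49, a share of 70.8% (63.3 to 77.6). These intervals cover counting error only, since reads without molecular identifiers are not independent molecules. The shares chose the pairs, so they are not a test of anything.

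Per kb of merged exon the contrast was wider at every pair except Med12l and Igsf10, where the opposite-strand gene has the longer exons. C230034O21Rik held 138 counts per kb and Fat4 1.17 counts per kb. Gm16159 held 86.4 and Fgfr1 3.95 counts per kb, and Gm9913 held 63.4 and Fbn1 5.03 counts per kb. Tmem198b and Mmp19, whose exons are of similar length, held 35.4 and 13.9 counts per kb. Med12l held 9.95 and Igsf10 2.96 counts per kb. For scale, the fibrillar collagen gene Col1a1 held 449 counts per kb, and Fat4 stood at the 54.9th percentile of the 12138 coding genes with any count. Across the whole table, 757 pairs of a long non-coding gene and a coding gene with at least 50 bp of opposite exon had 30 or more counts. In 81.2% of them the non-coding gene had more counts than the coding one, so the direction seen at C230034O21Rik and Gm16159 was also that of most such pairs. Among 540 pairs of 2 coding genes, the more counted gene held a median of 79.1% of the counts. In 45.7% of them the gene with the shorter merged exons had more counts, the direction seen at Gm9913 and Tmem198b but not at Med12l.

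Other genes lie over the same loci, and each had fewer counts than the sum of the pair it overlaps. Gm43539, an antisense gene with 281 bp of exon opposite Fat4, had 29 counts, more than the 20 under Fat4, with 16 of them in vehicle 3. Gm38186, with 66 bp opposite Igsf10, had 16 counts, against 30 under Igsf10. Dnajc14, a coding gene with 138 bp opposite Tmem198b, also had 16 counts. P2ry12, which overlaps a Med12l exon by 9 bp, had 1 count, and Gm43570, with 248 bp opposite Med12l, had 0. Gm47093, which also lies opposite Mmp19, was not analysed here.

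The comparison of vemurafenib with vehicle asks whether drug treatment of the skin changed these loci. By edgeR's quasi-likelihood test none of the 5 tested genes passed an adjusted p of 0.05, and 0 of all 477 tested genes passed (0% called). DESeq2 and limma-voom also called 0 genes. At an unadjusted p under 0.05 there were 23 genes with edgeR, 14 with DESeq2 and 41 with limma-voom. The 5 opposite-strand genes all had log2 fold changes below 0, as did 48.2% of all tested genes. An unadjusted p under 0.05 was reached on the lower side by 4 of them, against 2.31% of all tested genes, and on the higher side by 0, against 2.52%, but small p-values had helped to bring genes of this set together and nothing is read from that count.

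Tmem198b showed the widest separation. It had 220.4, 516 and 107 CPM in vemurafenib 1, 2 and 3, against 1105, 840.0 and 1039 CPM in vehicle 1, 2 and 3. The groups did not overlap, with vemurafenib lower, as for 4.19% of tested genes. Vemurafenib was higher without overlap for 4.61% and the groups were apart in either direction for 8.81%. Of the 5 opposite-strand genes, 2 had groups apart, Tmem198b and Gm16159. The log2 fold change of Tmem198b was -1.97 ± 0.49 (SE, n = 3 per group, edgeR adjusted p = 0.242), and -1.51 without vemurafenib 3. Its partner Mmp19 had 16, 5 and 7 counts in vemurafenib 1, 2 and 3, or 207, 235 and 187 CPM, and 3, 0 and 18 counts in vehicle 1, 2 and 3, or 123, 0 and 389 CPM. The 3 vemurafenib values were close together and lay between the vehicle values. The count of 0 allows up to 210.0 CPM in vehicle 2. With a looser filter of at least 10 counts summed over the 6 libraries, Mmp19 could be fitted. It then had a log2 fold change of -0.07 ± 0.56 (edgeR adjusted p = 0.999). With no filter beyond 1 count it was 0.13, so no direction is given for it.

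C230034O21Rik had 1063, 1690.2 and 587 CPM in vemurafenib 1, 2 and 3, and 2333, 1400.0 and 3765 CPM in vehicle 1, 2 and 3. The groups overlapped, because vehicle 2 lay below vemurafenib 2. The log2 fold change was -1.22 ± 0.47 (edgeR adjusted p = 0.874). It was -0.76 without vehicle 3 and -0.84 without vemurafenib 3. Fat4 had 3, 1 and 0 counts in vemurafenib 1, 2 and 3, and 0, 0 and 16 counts in vehicle 1, 2 and 3. Thus 80.0% of all Fat4 counts came from vehicle 3. Without that library Fat4 had 0 counts with vehicle, so its log2 fold change of -2.33 ± 0.89 under the looser filter (edgeR adjusted p = 0.496) rests on vehicle 3.

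Med12l had 272, 657 and 213 CPM in vemurafenib 1, 2 and 3, against 737, 630.0 and 1233 CPM in vehicle 1, 2 and 3. Vemurafenib 2 lay within the vehicle range and the other vemurafenib libraries below it. The log2 fold change was -1.35 ± 0.48 (edgeR adjusted p = 0.846). It was -0.95 without vehicle 3 and -1.01 without vemurafenib 3. Igsf10 had 4, 2 and 5 counts in vemurafenib 1, 2 and 3, and 1, 3 and 15 counts in vehicle 1, 2 and 3. The groups overlapped, and the looser filter gave a log2 fold change of -1.25 ± 0.67 (edgeR adjusted p = 0.963).

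Gm16159 had 298, 282 and 293 CPM in vemurafenib 1, 2 and 3, against 573, 420.0 and 865 CPM in vehicle 1, 2 and 3. The vemurafenib values were almost equal and all lay below the vehicle values, but they rest on few counts. Gm16159 had 23, 6 and 11 counts in vemurafenib 1, 2 and 3, and 14, 6 and 40 in vehicle 1, 2 and 3. Vemurafenib 2 and vehicle 2 thus had the same count and differ in CPM only through library scaling. In vemurafenib 2, 1 count equals 46.9 CPM, so the near equality is finer than the counts resolve. The log2 fold change was -1.15 ± 0.41 (edgeR adjusted p = 0.846), and without vehicle 3 the gene no longer passed the count filter. Fgfr1 had 8, 8 and 7 counts in vemurafenib 1, 2 and 3, or 104, 376 and 187 CPM, and 2, 3 and 11 counts in vehicle 1, 2 and 3, or 81.8, 210.0 and 238 CPM. These ranges overlapped, with a log2 fold change of 0.08 ± 0.64 under the looser filter (edgeR adjusted p = 0.999). Whether Gm16159 and Fgfr1 differed in their change was tested only through the share of counts given further on.

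Gm9913 had the smallest fitted change of the 5, and whether it differs from the others was not tested. It had 908, 845 and 400.0 CPM in vemurafenib 1, 2 and 3, and 1228, 350.0 and 844 CPM in vehicle 1, 2 and 3. The groups overlapped over most of their range, and the log2 fold change was -0.21 ± 0.47 (edgeR adjusted p = 0.995). It turned to 0.16 without vemurafenib 3 and to 0.13 without vehicle 1. Fbn1 had 30, 6 and 1 counts in vemurafenib 1, 2 and 3, and 2, 7 and 15 counts in vehicle 1, 2 and 3. Its log2 fold change under the looser filter was -0.18 ± 0.55 (edgeR adjusted p = 0.999), and 0.04 with no filter beyond 1 count.

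**Figure D2:**
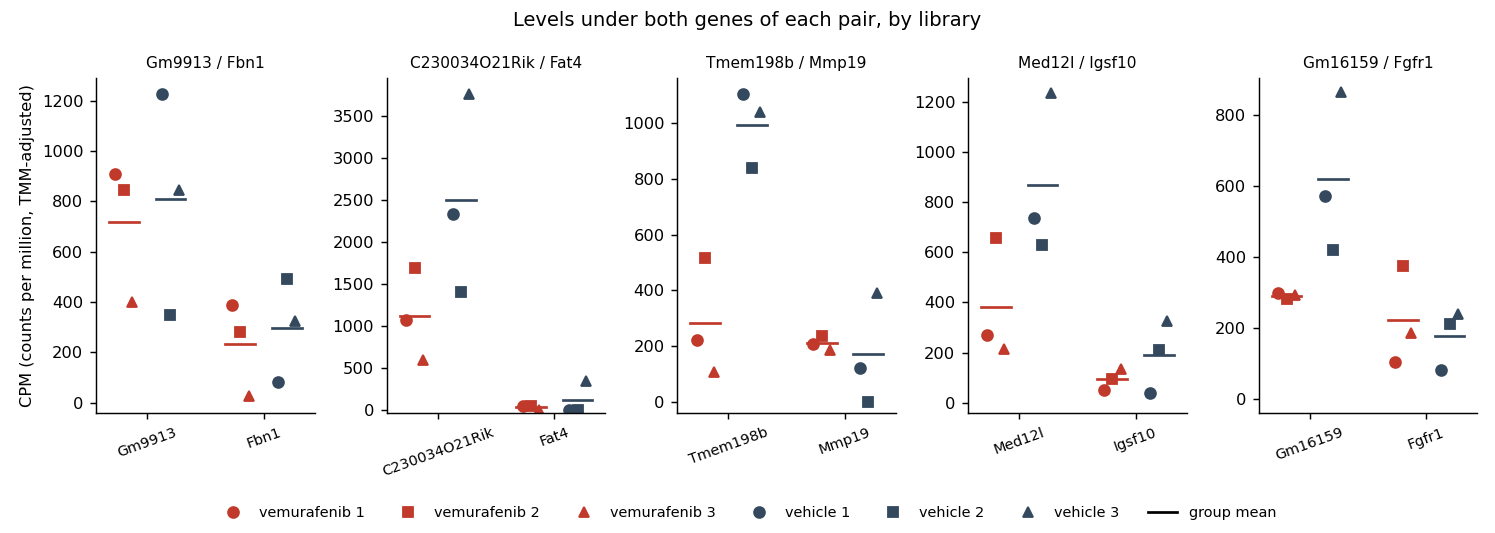
CPM under both genes of each pair in every library, with vemurafenib in red and vehicle in dark blue, marker shape giving the library number and lines the group means. Tmem198b at 107 to 516 CPM with vemurafenib lies below 840.0 to 1105 CPM with vehicle, whereas Mmp19 values overlap.

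Because the strand setting of the counting is not known, both counts of each pair were also summed. The table was refitted with the sums in place of the single genes. Whether the sums hold the reads from the shared exons cannot be told from the counts. None of the 5 sums passed, and 0% of the 477 rows were called. Tmem198b plus Mmp19 gave 428, 751 and 293 CPM in vemurafenib 1, 2 and 3, against 1228, 840.0 and 1428 CPM in vehicle 1, 2 and 3. These groups did not overlap, and the log2 fold change was -1.34 ± 0.45 (edgeR adjusted p = 0.762). Med12l plus Igsf10 averaged 474 ± 240.3 CPM with vemurafenib and 1058 ± 434 CPM with vehicle (SD, n = 3 each), again without overlap. Its log2 fold change was -1.29 ± 0.47, which was -0.84 without vehicle 3 (edgeR adjusted p = 0.928 with all libraries). The gap lay between 751 CPM in vemurafenib 2 and 778 CPM in vehicle 1. In vemurafenib 2, 1 count equals 46.9 CPM, so the gap was narrower than 1 count. How many rows of the summed table had groups apart was not computed, and among tested single genes it was 8.81%. C230034O21Rik plus Fat4 averaged 1142 ± 576 CPM with vemurafenib and 2614 ± 1377 CPM with vehicle. Its log2 fold change was -1.25 ± 0.48 (edgeR adjusted p = 0.928), and -0.73 without vehicle 3. Gm16159 plus Fgfr1 averaged 513 ± 131 CPM with vemurafenib and 796 ± 266 CPM with vehicle. Its log2 fold change was -0.73 ± 0.43 (edgeR adjusted p = 0.965), and -0.35 without vehicle 3. Gm9913 plus Fbn1 averaged 950.0 ± 461 CPM with vemurafenib and 1106 ± 241 CPM with vehicle, with a log2 fold change of -0.23 ± 0.44 (edgeR adjusted p = 0.994) that turned to 0.19 without vemurafenib 3.

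**Figure D3:**
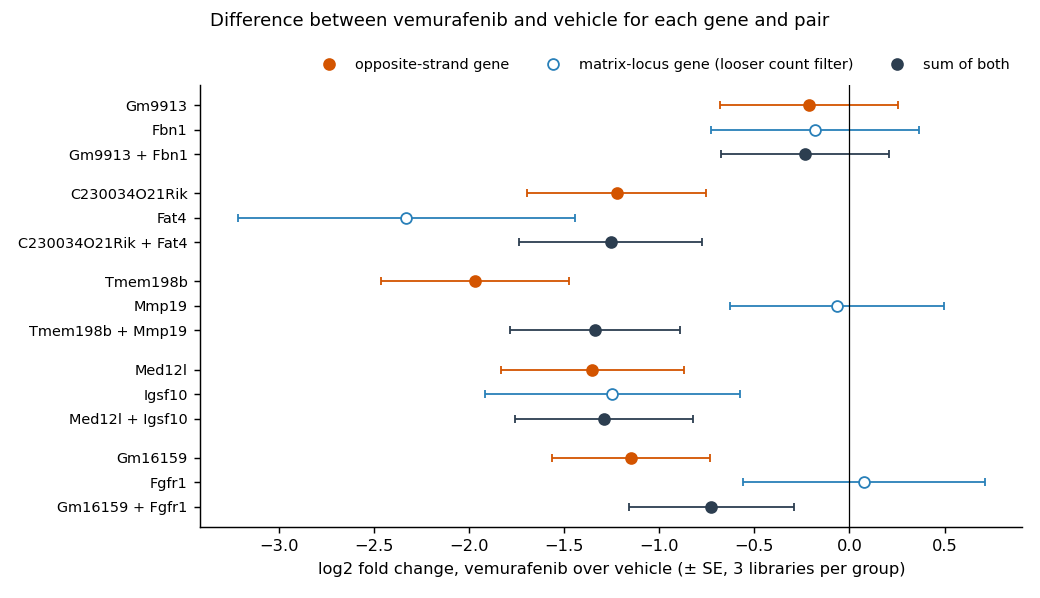
Log2 fold change of vemurafenib over vehicle with its standard error for each opposite-strand gene, each matrix-locus gene and their sum. Open circles come from the looser filter of at least 10 counts summed over the 6 libraries. The bars of Tmem198b (-1.97) and Mmp19 (-0.07) do not meet, nor do those of Gm16159 (-1.15) and Fgfr1 (0.08), while at the other loci the bars of both genes overlap. The 2 genes of a pair come from fits with different filters, and bars that do not meet are no test of a difference. With the looser filter for both genes, Gm16159 (-1.13 ± 0.48) and Fgfr1 still did not meet, nor did Tmem198b (-1.97 ± 0.49) and Mmp19. With no filter beyond 1 count for both, Gm16159 (-0.93 ± 0.52) and Fgfr1 (0.26 ± 0.68) did meet, whereas Tmem198b (-1.77 ± 0.52) and Mmp19 (0.13 ± 0.64) did not.

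The share of a pair's counts under the opposite-strand gene compares both genes within a library and does not depend on library scaling. At the Mmp19 locus Tmem198b held 51.5%, 68.8% and 36.4% of the counts in vemurafenib 1, 2 and 3, against 90.0%, 100% and 72.7% in vehicle 1, 2 and 3. The groups did not overlap, as for 5.98% of the 1304 opposite-strand pairs counted in every library. The mean share was 52.2 ± 16.2% with vemurafenib and 87.6 ± 13.8% with vehicle (SD, n = 3 each). The exact permutation test over libraries, two-sided, gave p = 0.1, the smallest p that 3 against 3 libraries allow. The interval from counting error was wide in the thin libraries, 10.9 to 69.2% for the 11 counts of vemurafenib 3.

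At the other loci the shares overlapped between the groups. Gm16159 held 74.2%, 42.9% and 61.1% in vemurafenib 1, 2 and 3, against 87.5%, 66.7% and 78.4% in vehicle 1, 2 and 3 (exact permutation test, two-sided, p = 0.2). Med12l held 84.0%, 87.5% and 61.5% in vemurafenib 1, 2 and 3, and 94.7%, 75.0% and 79.2% in vehicle 1, 2 and 3 (exact p = 0.7). Gm9913 held 70.0%, 75.0% and 93.8% in vemurafenib 1, 2 and 3, and 93.8%, 41.7% and 72.2% in vehicle 1, 2 and 3 (exact p = 0.7). C230034O21Rik held 96.5% to 100% with vemurafenib and 91.6% to 100% with vehicle (exact p = 1). In all, 5 shares were compared, and the design could not have brought any of them below 0.1.

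**Figure D4:**
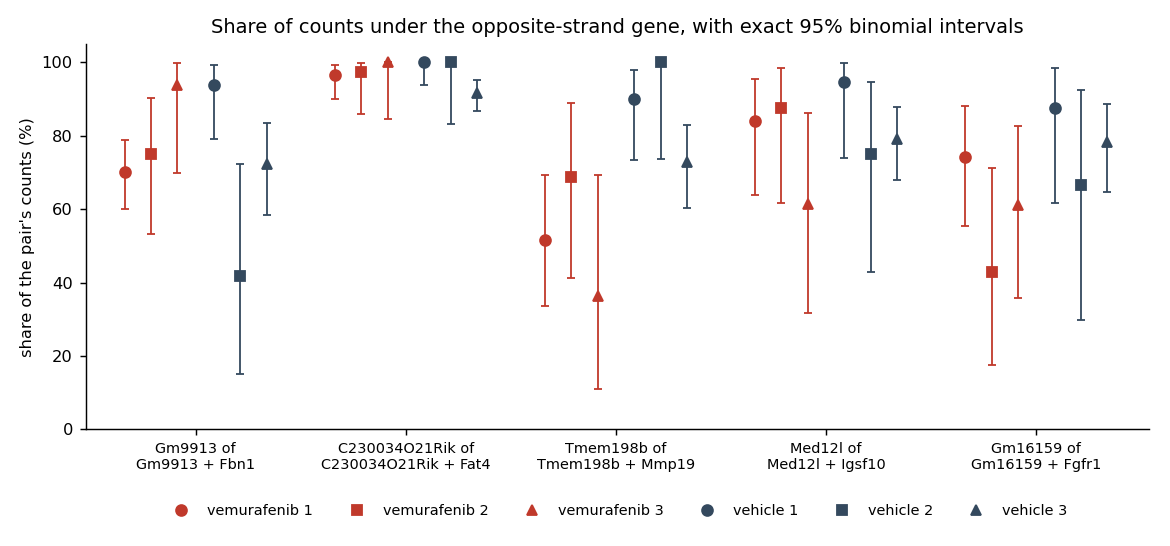
Share of each pair's counts (%) that stood under the opposite-strand gene, per library, with exact 95% binomial intervals; vemurafenib in red and vehicle in dark blue. For Tmem198b the vemurafenib libraries reach at most 68.8% and the vehicle libraries at least 72.7%.

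The opposite-strand genes were then set beside the dermal collagens of the same libraries. Collagen levels did not themselves choose the pairs, but small p between the groups had helped to. Of the 11 tested collagens, 10 also had log2 fold changes below 0, and the collagen list was chosen with earlier results known. The correlations are therefore not independent of the choice of pairs and are descriptions. Summed over 12 collagen genes, the level was 41556, 48405 and 22826 CPM in vemurafenib 1, 2 and 3, and 36871, 53059 and 81588 CPM in vehicle 1, 2 and 3. Vemurafenib 3 was the lowest and vehicle 3 the highest. Over the 6 libraries, Med12l had a Pearson r of 0.83 with the collagen sum (exact permutation p = 0.05) and a Spearman rho of 0.60 (exact p = 0.242). C230034O21Rik had an r of 0.83 (exact p = 0.0486) and a rho of 0.60 (exact p = 0.242). Tmem198b and Gm16159 had r of 0.72 and 0.64 (exact p = 0.103 and 0.185), each with a rho of 0.43 (exact p = 0.419). Gm9913 had an r of 0.24 (exact p = 0.65) and a rho of -0.31 (exact p = 0.564). The adjusted p over all 466 genes related to the collagen sum was at least 0.515 for these 5 genes, and 0% of the 466 passed. An unadjusted p under 0.05 was reached by 8.8% of them.

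Vehicle 3 and vemurafenib 3 lay farthest from the median collagen level. Without vehicle 3 alone, r was 0.69 for Med12l, 0.66 for C230034O21Rik, 0.67 for Tmem198b, 0.16 for Gm16159 and 0.16 for Gm9913. Without vemurafenib 3 alone, r was 0.67 for Med12l, 0.62 for C230034O21Rik, 0.35 for Tmem198b, 0.59 for Gm16159 and -0.32 for Gm9913. No positive relation of this size remained when both were left out, which narrows the collagen range to 4 libraries. Then r became 0.14 for Med12l, -0.39 for C230034O21Rik, -0.01 for Tmem198b, -0.43 for Gm16159 and -0.88 for Gm9913. Each group holds 3 libraries, too few for a correlation within it.

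**Figure D5:**
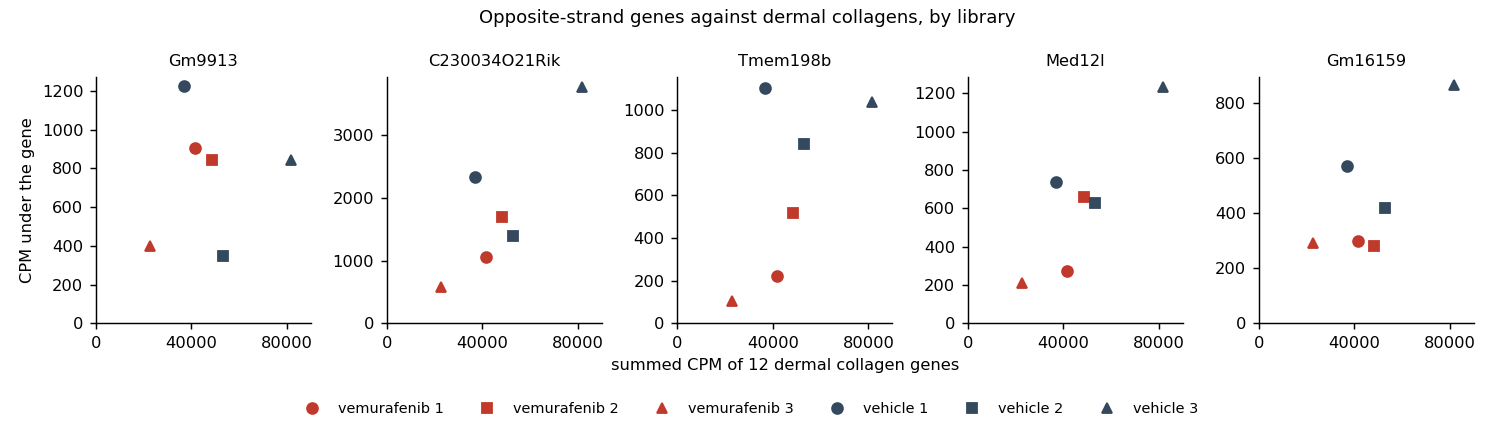
CPM under each opposite-strand gene against the summed CPM of 12 dermal collagen genes, 1 point per library, vemurafenib in red and vehicle in dark blue. Vehicle 3, at 81588 CPM of collagens, and vemurafenib 3, at 22826 CPM, stand at the ends of the horizontal axis.

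The opposite-strand genes varied together to unequal degrees across the 6 libraries. On log2 CPM, Pearson r was 0.96 between C230034O21Rik and Med12l, 0.93 between Tmem198b and Med12l, and 0.76 between Tmem198b and Gm16159. For Gm9913 it lay between 0.31 and 0.58 with the other 4. These values share the same libraries and depth and are descriptions. Among all tested genes, those most like Med12l were Postn, the matrix protein periostin (r = 0.97), C230034O21Rik (0.96) and Col7a1, the collagen of anchoring fibrils (0.95). Those most like C230034O21Rik were Med12l, Col7a1 (0.93) and Gm26889 (0.93), a feature whose exons lie opposite Svep1. Tmem198b was most like Gm26889 (0.96), Med12l (0.93) and Col7a1 (0.93). Gm16159 was most like Serinc4 (0.94, opposite Serf2), Gm26719 (0.92, opposite Cped1) and Gm26889 (0.89). Gm9913 was most like Ints11 (0.98, opposite Pusl1), Gm16567 (0.95, opposite C1s1) and Fam210a (0.95, opposite Ldlrad4). Of the genes named for their likeness that are not themselves in the 5 pairs, Postn and Col7a1 had no opposite exon of 50 bp or more, and all the others had one. The share of all tested genes with such an exon was not computed, so nothing is read from this. The highest values among many genes over 6 libraries are also high by selection.

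The pathways of the matrix-locus genes were thinly counted as a whole. Of 23 elastic fibre and microfibril genes, 1 was tested and 0 passed. It was Adamtsl4, which encodes a protein bound to fibrillin microfibrils and had 200 counts, 688 ± 229.9 CPM with vemurafenib and 904 ± 558 CPM with vehicle. Its log2 fold change was -0.44 ± 0.46 (edgeR adjusted p = 0.966), and Fbn1 followed it in counts. Of 21 Fat, Dachsous and Hippo pathway genes 0 were tested. The most counted were Fat1, a cadherin of the same family as Fat4, with 29 counts, and Yap1, the transcriptional co-activator held back by Hippo signalling, with 23. Of 24 metalloproteinases and inhibitors 0 were tested. Mmp14, the membrane-bound collagenase, had 85 counts and Mmp19 came next. Of 23 FGF pathway genes 0 were tested, and Fgfr1 led with Sdc1, the heparan sulphate proteoglycan syndecan-1, behind it at 35 counts. Hspg2, which encodes the basement membrane proteoglycan perlecan, was the 1 tested gene of the immunoglobulin superfamily list, with 575 ± 177 CPM with vemurafenib and 954 ± 577 CPM with vehicle. Its log2 fold change was -0.79 ± 0.47 (edgeR adjusted p = 0.966). In that list Ptk7, a receptor-like kinase of planar polarity, came next at 33 counts. Of the 7 Mediator kinase module genes Med12l was the 1 tested, and its relative Med13l had 24 counts. Of the 12 dermal collagens 11 were tested and 0 passed, with a median log2 fold change of -0.55 against 0.02 over all tested genes. The most counted were Col1a1 and Col3a1, the main fibrillar collagens of the dermis, with log2 fold changes of -0.55 ± 0.49 and -0.75 ± 0.49 (edgeR adjusted p = 0.966 for both).

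Genes on these lists outside the 5 pairs were also looked up for opposite exons. Of 111 such genes, 33 shared 50 bp or more of exon with a gene on the other strand, and 32 of these had a count under either name. The opposite gene had more counts at 18, the listed gene at 13, and they were equal at 1. The examples that follow were picked after their values were seen. Timp3, an inhibitor of metalloproteinases, had 10 counts, against 144 under Syn3, within which it lies. Fgfr3, another FGF receptor, had 14 counts, and G630022F23Rik opposite it had 69. Dchs1, which encodes the Dachsous ligand of Fat4, had 16 counts, and Gm15645 had 52. Fat1 had 29 counts, and Gm2366 had 106. In the other direction, Col5a1, a collagen of thin fibrils, had 990 counts and Gm13372 had 157, and Mmp24 had 43 counts and BC029722 had 1. The elastin gene Eln had 51 counts and Gm30003 had 5.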

How the data were processed

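Skin of Db/Db mice was profiled in 6 libraries, 3 treated with vemurafenib and 3 with vehicle. The authors deposited whole-number read counts per gene symbol, made with HISAT2 and HTSeq on mm10 per the submitters' processing notes; the sources used here do not give versions, annotation or the strand setting. The table has 1 further column that matches no sample and was not used.

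Counts were tested with edgeR 4.0.16 in R 4.3.3 (filterByExpr with a smallest count of 10 and smallest total of 15, TMM scaling, robust quasi-likelihood fit, group as the only term), and p-values were adjusted over all tested genes with a threshold of 0.05. Standard errors were derived by dividing each log2 change by the root of its F statistic. CPM are counts per 1000000 after TMM adjustment; correlations use log2 CPM with a prior count of 2. Totals of 14189 to 78434 counts per library gave a median standard error of 0.45 on the log2 scale. On simulated counts (10 runs of 470 to 502 tested genes) vemurafenib against vehicle recovered 95.1% of 4-fold and 30.9% of 2-fold changes, with 4.18% false calls. Each simulated run changed a large part of the tested genes at once, which eases the adjusted threshold, and gave every gene the same dispersion. These rates need not hold for a table in which few genes change. Exons were merged per gene in GENCODE M21, in which 99.2% of the symbols were found, and sequences were read from its transcripts. Of the 10 genes 9 were found in the RefSeq table (GRCm38.p6). Alternatives were DESeq2 1.42.0, limma-voom (limma 3.58.1), other scalings and filters, the replicate number as a block and leaving out each library. Named genes were the 10 members, genes whose exons overlap theirs, the 3 tested genes most like each tested member, and from each list the 2 most counted genes where none passed. Further list genes with opposite exons were named as examples after their values were seen. Members and lists were chosen with earlier results of these data known. The remaining steps ran in Python 3.11.15 with scipy 1.17.1, and figures were drawn in matplotlib 3.10.9.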

Additional observations from a re-analysis of the deposited data

How the results depend on the processing

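The count of 0 changed genes became 3 with no filter beyond 1 count and 3 with at least 10 counts summed over the 6 libraries. It became 0 to 2 when leaving out 1 library (2 without vemurafenib 1). None of these calls was one of the 10 genes of the pairs. Looser filters moved the median log2 fold change of all genes from 0.02 to 0.42 and 0.09. The cause was not tested. The count of 0 changed pair sums was 0 under every alternative run. Of 139 log2 fold changes of the 5 tested genes and the 5 sums under alternatives, 136 kept their direction and 0 passed the threshold. Gm9913 turned to 0.16 without vemurafenib 3 and 0.13 without vehicle 1, and Gm9913 plus Fbn1 to 0.19 without vemurafenib 3. Leaving out 1 library gave ranges of -0.51 to 0.16 for Gm9913, -0.58 to 0.19 for Gm9913 plus Fbn1, -2.52 to -1.51 for Tmem198b, -1.86 to -0.95 for Med12l, -1.61 to -0.76 for C230034O21Rik and, where it passed the filter, -1.32 to -1.07 for Gm16159. The difference in mean share (vemurafenib minus vehicle, percentage points) was 10.4 for Gm9913, -1.94 from summed counts, and -3.40 to 22.6 when leaving out 1 library. It was 0.73 (-2.08 to 2.13) for C230034O21Rik, with -0.31 without vemurafenib 3 and -2.08 without vehicle 3. It was -5.29 (-10.2 to 2.78) for Med12l, with 2.78 without vemurafenib 3 and 0.60 without vehicle 1. When leaving out 1 library it stayed between -43.6 and -27.4 for Tmem198b, and between -25.5 and -9.88 for Gm16159. From summed counts it was -27.2 for Tmem198b, -15.5 for Gm16159, 3.21 for C230034O21Rik and -1.92 for Med12l. The correlation of Gm9913 with collagens was -0.32 without vemurafenib 3 and ran from -0.32 to 0.53.

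Same-numbered libraries did not deviate together (r of 0.04, -0.08 and -0.33 over tested genes), and vemurafenib 3 correlated best with vehicle 2 (0.32). Deviations from a mean of 3 libraries constrain one another, so these values cannot settle whether same-numbered libraries belong together. The replicate block gave 0 changed genes and 0 changed pair sums, with an adjusted p of 0.0648 for Tmem198b, whose adjusted p ran from 0.0577 to 0.995 over all alternatives. Depth limits these results: most matrix-locus counts per library were in single digits, so differences of moderate size were not detectable there.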
